A study of Macaca mulatta with 161 samples.

Results

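PIWIL2, FKBP6, M1AP, MAEL, TDRKH, TDRD1, DDX4 and DAZL are 8 genes best known from germ cells, where they act in the piRNA pathway, in meiosis or in both. They were described here in single inner cells of rhesus monkey blastocysts. They are 8 of the 16049 gene symbols in the deposited expression table, and each of them has a row. They were chosen by name, with earlier results on these cells known: FKBP6 and M1AP were among the genes with the largest differences in mean level between stages, so the stage levels are given as a description, with no test.

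The embryos came from oocytes of hormone-stimulated females that were fertilised in vitro and cultured. PKH26, a dye that enters membranes, labelled the outer cells of intact blastocysts, and dissociated cells that lacked it were kept as inner cells, 1 library per cell. There were 44 cells of early blastocysts with a small cavity (about embryonic day 5), 39 of middle blastocysts (about day 5.5), 52 of late blastocysts that were fully expanded (about day 6) and 26 of hatching blastocysts (about day 7). No label says which embryo or animal a cell came from, so each stage counts as 1 sample here: cells of a stage may share an embryo, the SD given is the spread between cells, and no p-value was computed.

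piRNAs are small RNAs that guide PIWI proteins to transposon transcripts. Their precursors are cut and trimmed, and the PIWI proteins loaded, at mitochondria and in nearby RNA-rich granules called nuage, where Tudor-domain proteins bind PIWI proteins at methylated arginines. In mammals the pathway is known chiefly for keeping transposons silent in the male germ line while DNA methylation is reset, and loss of its genes stops sperm formation. The inner cell mass of a blastocyst is not germ line. It gives rise to the epiblast, marked by NANOG, and the primitive endoderm, marked by SOX17.

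Values are FPKM, fragments scaled for transcript length and library size, as deposited. Levels are means over cells of log2(FPKM + 1), and a gene is called detected in a cell at an FPKM of at least 1. Intervals on shares of cells are 95% exact (Clopper-Pearson) and cover the counting of cells only. The low values of the table were whole multiples of what 1 read is worth, which gave a median of 11.5 M reads per cell (3.05 to 19.3 M), a lower bound because not every gene's reads were recovered. Median depth was 10.9, 12.4, 10.7 and 11.4 M reads in early, middle, late and hatching cells. An FPKM of 1 stood for a median of 17.4 reads for FKBP6 and 53.9 reads for TDRD1, with the other genes between these, so a detected gene rested on many reads. POU5F1, a gene of pluripotent cells, was detected in all 44 early, 39 middle, 52 late and 26 hatching cells. All 12 listed genes of the trophectoderm, the outer lineage, had a row. Their summed FPKM had a median of 1215 in early cells (395 to 5679), 1831 in middle cells (266 to 7430), 2061 in late cells (542 to 22180) and 2381 in hatching cells (816 to 5460), and none of the 12 was at 0 in all cells of a stage. The listed genes did not move together, as some of them, chosen after their values were seen, show. CDX2 was detected in 43, 37, 30 and 13 cells, GATA3 in 19, 13, 11 and 5, and HAND1 in 15, 5, 4 and 1. GATA2 was detected in 11, 18, 8 and 4 cells, KRT19 in 15, 23, 47 and 26 and KRT7 in 5, 15, 27 and 19. KRT18 had the highest mean level of the 12 at every stage, 9.85 in early and 10.36 in hatching cells. The part of trophectoderm RNA in the results was not tested.

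Cells within a stage also stood apart by the number in their titles. Early cells numbered 29 to 48 had a median of 14.5 M reads and those numbered 1 to 28 had 8.78 M. All 7 hatching cells with more SOX17 than NANOG were numbered 1 to 18. These ranges (early 1 to 28 and 29 to 48, middle 1 to 29 and 32 to 55, late 1 to 24 and 25 to 79, hatching 1 to 18 and 22 to 47) were set after the data were seen, and what sets them apart was not tested. They pool 2 middle and 5 late cells whose titles begin with HS, late number 79 among them, with the other titles. What HS marks is not known here. The stage differences of PIWIL2 and DDX4 that changed most between the ranges are given both ways.

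M1AP had the highest mean level of the 8 genes in early and late cells, was level with FKBP6 in middle cells, and was lower at each later stage. It encodes a meiosis protein that works with recombination factors at crossover sites in spermatocytes. M1AP was detected in 43 of 44 early cells, 34 of 39 middle cells, 36 of 52 late cells and 4 of 26 hatching cells. These are 97.7% (88.0 to 99.9%), 87.2% (72.6 to 95.7%), 69.2% (54.9 to 81.3%) and 15.4% (4.36 to 34.9%).

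In early cells M1AP ran from 0.963 to 165.9 FPKM, with a median of 56.6. The lowest, median and highest values were 0.0406, 42.2 and 188.4 FPKM in middle cells and 0.0296, 10.5 and 92.5 in late cells. In hatching cells they were 0, 0.0497 and 14.01 FPKM. The highest hatching cell was passed by 42 of 44 early, 30 of 39 middle and 22 of 52 late cells, and the ranges of the stages overlapped. Mean levels were 5.63 (SD 1.23), 4.81 (SD 2.05), 3.09 (SD 2.26) and 0.53 (SD 1.11) on the log2 scale. Of the steps between neighbouring stages, only that from late to hatching, 2.56 lower, was larger than the SD between cells (2.26). Cells in which M1AP was detected also had less of it later, with a median of 56.99 FPKM in early, 47.3 in middle, 22.2 in late and 7.45 in hatching cells. Among cells with more NANOG than SOX17 alone, the means were 5.63, 4.81, 3.47 and 0.68, so the order was the same without the SOX17-high cells. By title number, the means were 5.07 and 6.37 in the lower and higher ranges of early cells and 0.39 and 0.65 in those of hatching cells.

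FKBP6 peaked in the middle stage. It encodes an inactive relative of the prolyl isomerases that acts with HSP90 as PIWI proteins are loaded with piRNAs, and is also needed for meiosis. FKBP6 was detected in 19 of 44 early, 32 of 39 middle, 10 of 52 late and 0 of 26 hatching cells. The shares were 43.2% (28.3 to 58.97%), 82.1% (66.5 to 92.5%) and 19.2% (9.63 to 32.5%) in the first 3 stages, and 0 of 26 cells allows a share of up to 13.2%.

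The median FPKM of FKBP6 was 0.386 in early cells, where the highest was 156.1. In middle cells the median was 43.7 and the highest 399.7, the highest value of any of the 8 genes in any cell. In late cells the median was 0.113 and the highest 120.5. Every stage had cells at 0 FPKM, so the ranges overlapped. In hatching cells the highest value was 0.215 FPKM, from at most 3 reads. Mean levels were 1.87 (SD 2.20), 4.79 (SD 2.66), 1.00 (SD 1.84) and 0.03 (SD 0.08). The middle stage was 2.92 above the early stage, the next in order, which is larger than the SD of 2.66, and the early, late and hatching stages did not differ from their neighbours in that order by more than it.

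With all cells of a stage pooled, PIWIL2 was highest in middle cells and second in hatching cells, an order that did not hold within ranges of title numbers. It encodes a PIWI protein that binds piRNAs in fetal and adult male germ cells. PIWIL2 was detected in 11 of 44 early, 23 of 39 middle, 13 of 52 late and 13 of 26 hatching cells. The shares were 25% (13.2 to 40.3%), 58.97% (42.1 to 74.4%), 25% (14.03 to 38.9%) and 50% (29.9 to 70.1%). Its lowest value was 0 at each stage, and its highest was 18.4, 71.4, 25.01 and 29.3 FPKM in turn. The median was 0.0178, 8.00, 0.0254 and 2.43 FPKM. Mean levels were 0.74 (SD 1.34), 2.51 (SD 2.19), 0.88 (SD 1.55) and 1.82 (SD 1.83), and no stage differed from its neighbour in this order by more than the SD between cells. Without the SOX17-high cells the means were 0.74, 2.51, 1.21 and 2.45, so middle and hatching cells were nearly level.

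The PIWIL2 level of middle cells rested on 1 range of title numbers. It was detected in 20 of 27 middle cells numbered 1 to 29 (mean 3.28) and in 3 of 12 numbered 32 to 55 (mean 0.80). Between the higher ranges of the early and middle stages, the middle-minus-early difference was -0.19 in place of 1.77. In the lower ranges the means were 0.55 in early, 3.28 in middle, 1.43 in late and 0.92 in hatching cells. In the higher ranges they were 0.99, 0.80, 0.48 and 2.60, so hatching cells came first there and below late cells in the lower ranges. Hatching minus late, 0.95 over all cells, was -0.50 in the lower and 2.12 in the higher ranges. SOX17-high cells made up 9 of 22 late and 7 of 12 hatching cells in the lower ranges. In the higher ranges they made up 10 of 30 and 0 of 14. Among the other cells, late and hatching means were 1.97 and 2.04 in the lower ranges and 0.71 and 2.60 in the higher ones. So without SOX17-high cells, hatching was not below late in either. Late minus middle, -1.64 over all cells, was -1.85 and -0.32. FKBP6 did not show this: it was detected in 22 of 27 and 10 of 12 middle cells of these ranges. In hatching cells PIWIL2 was detected in 3 of 12 cells numbered 1 to 18, which include all SOX17-high cells, and in 10 of 14 numbered 22 to 47.

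**Figure D1:**
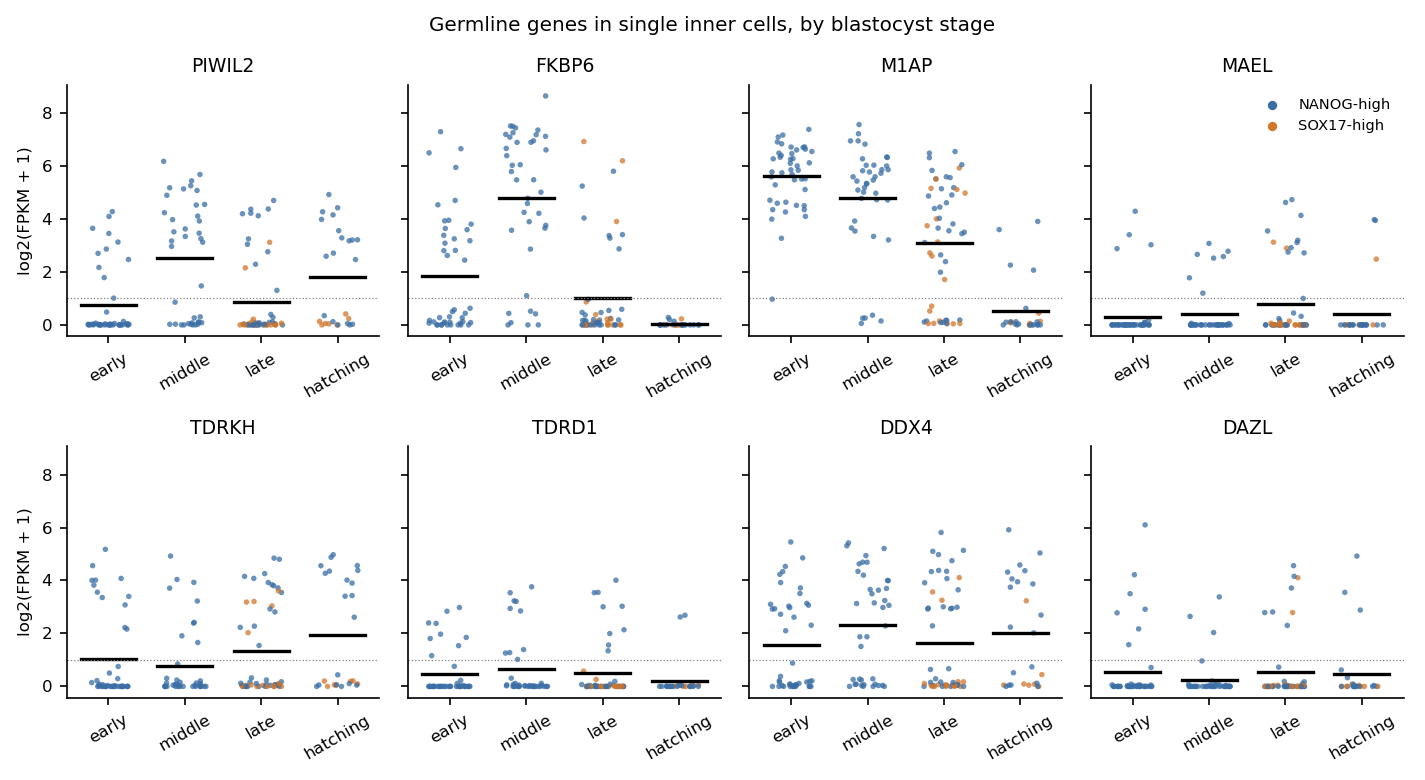
Each point is 1 cell, placed by blastocyst stage (x axis) and log2(FPKM + 1) of the gene (y axis); bars are the mean over cells, the dotted line is an FPKM of 1, and color marks cells with more NANOG (blue) or more SOX17 (orange). M1AP means step down from 5.63 in early to 0.53 in hatching cells, FKBP6 peaks at 4.79 in middle cells, and most genes have a group of cells near 0 and a separate group well above it.

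DDX4 was detected in 77 of the 161 cells, more than any other of the 8 genes but M1AP, with 117. It encodes the RNA helicase VASA, a lasting marker of germ cells and a core part of nuage. DDX4 was detected in 19 of 44 early, 24 of 39 middle, 21 of 52 late and 13 of 26 hatching cells. Its median was 0.160, 6.90, 0.125 and 1.87 FPKM at these stages and its highest value 42.8, 41.8, 55.2 and 59.4. Cells at 0 FPKM were found at every stage. Mean levels were 1.55 (SD 1.78), 2.32 (SD 1.98), 1.63 (SD 1.97) and 2.01 (SD 2.03), all within 1 SD of each other. Without the SOX17-high cells they were 1.55, 2.32, 2.21 and 2.54, so hatching cells came first.

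Middle cells split by number for DDX4 too, the opposite way to PIWIL2. DDX4 was detected in 12 of 27 middle cells numbered 1 to 29 (mean 1.52) and in 12 of 12 numbered 32 to 55 (mean 4.12). In early cells it was detected in 8 of 25 in the lower range and 11 of 19 in the higher one. Median depth was 11.9 M reads in the lower and 13.8 M in the higher range of middle cells. The part of depth in this was not tested. Late minus middle, -0.69 for DDX4 over all cells, was 0.20 in the lower and -2.56 in the higher ranges. Middle minus early, 0.77 over all cells, was 0.49 and 1.89, so it passed 1 log2 unit in the higher ranges only. Hatching minus early, 0.46 over all cells, was 0.90 and -0.15.

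**Figure D2:**
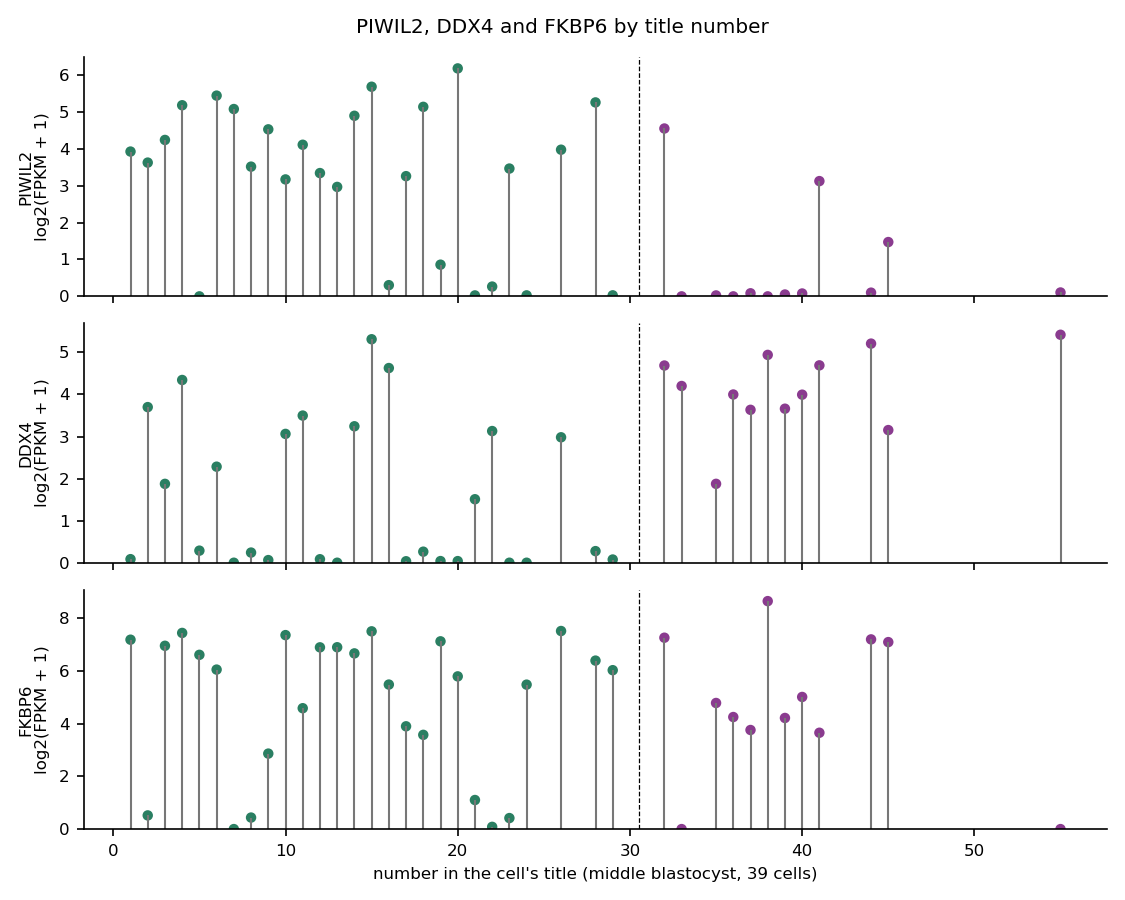
PIWIL2, DDX4 and FKBP6 in the 39 middle cells, as log2(FPKM + 1) (y axes) against the number in the cell's title (x axis); each stem is 1 cell, and the dashed line separates numbers 1 to 29 (green) from 32 to 55 (purple). PIWIL2 is detected in 20 of 27 and 3 of 12 cells of these ranges, and DDX4 in 12 of 27 and 12 of 12.

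TDRKH, like PIWIL2 and DDX4, was detected in over 20% of the cells of each stage. It encodes a mitochondrial Tudor-domain protein that holds PIWI proteins while piRNA ends are trimmed. TDRKH was detected in 12 of 44 early, 9 of 39 middle, 20 of 52 late and 12 of 26 hatching cells. Mean levels were 1.04 (SD 1.67), 0.79 (SD 1.404), 1.34 (SD 1.73) and 1.96 (SD 2.09), and neighbours in this order did not differ beyond the SD. Leaving out SOX17-high cells gave means of 1.04, 0.79, 1.64 and 2.63. Its highest value was 35.2 FPKM, in an early cell. TDRKH overlaps OAZ3 in a RefSeq annotation of the rhesus genome that may not be the one the authors used, and OAZ3 has no row, so reads of the overlap cannot be told apart here.

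TDRD1, MAEL and DAZL were detected in the fewest cells over all stages, at 30, 26 and 21 of 161. By stage this did not always hold: TDRD1 was detected in 25.6% of middle cells, beside 23.1% for TDRKH. MAEL was detected in 23.1% of late cells. TDRD1, a Tudor-domain protein of nuage that binds PIWIL2, was detected in 9 of 44 early, 10 of 39 middle, 9 of 52 late and 2 of 26 hatching cells. Its highest value was 15.1 FPKM. MAEL, a nuage protein needed for transposon silencing, was detected in 4, 7, 12 and 3 cells, up to 25.6 FPKM. DAZL, an RNA-binding protein that controls translation in germ cells, was detected in 7, 3, 8 and 3 cells, up to 67.6 FPKM in an early cell. The mean levels of all 3 genes were between 0.21 and 0.77 at every stage. DAZL has a near-identical relative on the Y chromosome that has no row, so its values are uncertain.

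By mean level, 2 of the 8 genes were at least 1 log2 unit higher in middle than in early cells (PIWIL2 at 1.77 and FKBP6 at 2.92), and 3.06% of the 9781 genes with a mean FPKM of at least 1 were. No member was lower by that much, and 3.61% of all genes were. From middle to late, 3 were lower (FKBP6 at -3.79, M1AP at -1.72 and PIWIL2 at -1.64), beside 5.82% of all genes, and none was higher (3.95% of all genes). From late to hatching, 1 was lower (M1AP), beside 9.87%, and none was higher (7.26%). FKBP6, at -0.97, and PIWIL2, at 0.95, lay just short of 1. Between early and hatching cells, 2 were lower (M1AP at -5.10 and FKBP6 at -1.83), beside 16.2%, and 1 was higher (PIWIL2 at 1.08), beside 11.3%, with TDRKH just short of it at 0.92. These contrasts pool cells with more NANOG and cells with more SOX17, the latter found only in late and hatching cells. They also helped choose the genes, so nothing is read from the counts. The median of all genes was 0.08, -0.05, -0.14 and -0.12 in these contrasts. Median-of-ratios scaling moved the last to -0.00, and scaling every cell to the same sum of FPKM moved the first to 0.20.

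In single cells the 8 genes were mostly either near 0 or clearly present. Of the 1288 values of 8 genes in 161 cells, 802 (62.3%) were below 0.3 FPKM, 416 (32.3%) were at 3 FPKM or more and 70 (5.43%) lay between. These shares were not computed for other genes, so the split is not shown to be particular to the 8. M1AP had 39 cells below, 7 between and 115 above, and DDX4 77, 10 and 74. A detected cell had a median of 484.5 reads of PIWIL2 and 371 of DDX4, so the upper group did not rest on single reads. Reads of amplified cDNA are not independent molecules, and the part of missed transcripts in the split was not tested. Lower amounts were common: PIWIL2 had at least 1 read in 89.7% of middle cells and an FPKM of at least 1 in 58.97%.

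Cells had a mean of 2.82 of the 8 genes in the early stage (SD 1.23), 3.64 in the middle stage (SD 1.58), 2.48 in the late stage (SD 1.75) and 1.92 in the hatching stage (SD 1.32). PIWIL2, FKBP6 and M1AP were detected together in 6 of 44 early, 19 of 39 middle, 2 of 52 late and 0 of 26 hatching cells. None of these 3 was detected in 1, 0, 11 and 12 cells. FKBP6 came with M1AP in 58 of its 61 cells, beside M1AP in 117 of all 161 cells. PIWIL2 came with DDX4 in 34 of its 60, beside DDX4 in 77 of all 161. The Pearson r was 0.42 for FKBP6 with M1AP and 0.08 for PIWIL2 with DDX4 over all cells. In middle cells it was 0.38 and -0.24. The cells share stage, depth and perhaps embryo. All 8 genes were detected in 2 cells, middle cell 6 and late cell 3.

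**Figure D3:**
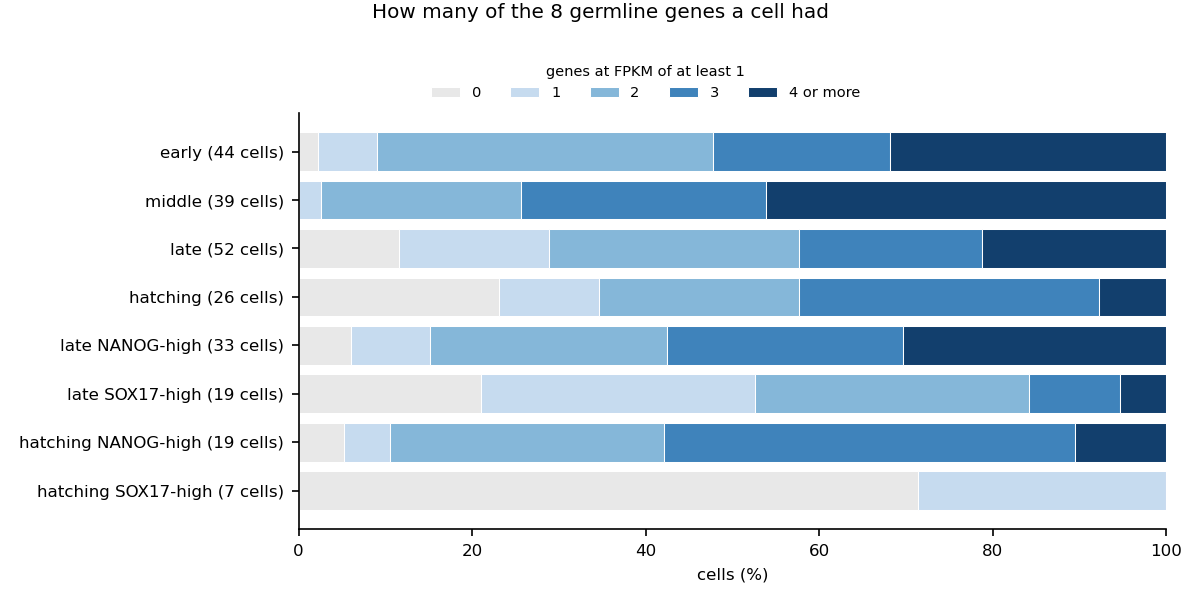
Bars give the percentage of cells (x axis) with 0, 1, 2, 3 or at least 4 of the 8 genes at an FPKM of at least 1, by stage and, for the late and hatching stages, by NANOG-high and SOX17-high cells. In middle cells 18 of 39 had at least 4 genes, and in hatching SOX17-high cells 5 of 7 had none.

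A cell was put on the SOX17-high side where its SOX17 level passed its NANOG level, and on the NANOG-high side otherwise. All 44 early and 39 middle cells were NANOG-high. Of the late cells 33 were NANOG-high and 19 SOX17-high, with 3 within 1 log2 unit of the line, and of the hatching cells 19 and 7, with none near it. These are ranges of a ratio, not cell types. SOX17 was detected in 9 of the 33 late NANOG-high cells. By the mean level of listed epiblast and primitive endoderm genes, 24 late cells fell on the endoderm side. Grouping late cells into 2 clusters by expression (Ward) put 29 there. Each time all 19 SOX17-high cells were among them, and hatching cells split 7 and 19 by both. The 13 listed primitive endoderm genes with a row, SOX17 among them, summed to a median of 6500 FPKM in late SOX17-high and 60.3 in late NANOG-high cells.

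In late cells DDX4 and M1AP were lower on the SOX17-high side. DDX4 was detected in 18 of 33 NANOG-high cells (54.5%, 36.4 to 71.9%) and 3 of 19 SOX17-high cells (15.8%, 3.38 to 39.6%), with medians of 6.59 and 0.0321 FPKM. Its mean was 2.21 (SD 2.04) and 0.62 (SD 1.35). M1AP had means of 3.47 (SD 2.23) and 2.43 (SD 2.21), with 25 of 33 and 11 of 19 cells. The values of both genes overlapped between the sides, and neither difference passed the SD between cells. Within title numbers 1 to 24 DDX4 was detected in 8 of 13 NANOG-high and 1 of 9 SOX17-high cells, and within 25 to 79 in 10 of 20 and 2 of 10. The other genes were TDRD1 at 9 of 33 and 0 of 19 cells (up to 17.6%), MAEL at 10 and 2, PIWIL2 at 11 and 2, TDRKH at 15 and 5, DAZL at 6 and 2, and FKBP6 at 7 and 3. So DDX4 (-1.59) and M1AP (-1.04), 2 of 8 genes, were lower by at least 1 log2 unit, beside 7.89% of all genes. None was higher, beside 7.69%. PIWIL2, at -0.90, and TDRKH, at -0.83, lay just short of 1. M1AP was at -0.70 within title numbers 1 to 24 and at -1.46 within 25 to 79. NANOG-high cells had a mean of 3.06 of the 8 genes and SOX17-high cells 1.47. Median depth was alike on the sides, at 10.7 and 10.8 M reads.

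Over the 52 late cells DDX4 had a Pearson r of 0.51 with NANOG and -0.48 with SOX17, the largest of the 8 genes in that stage. The cells share the stage and its libraries, and these are descriptions. In early cells, where SOX17 was detected in 6, PIWIL2 had an r of 0.43 with SOX17 and was detected in 4 of those 6 cells and 7 of the 38 others. In middle cells it had -0.00 with SOX17.

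In hatching cells PIWIL2, TDRKH and DDX4 were detected almost only on the NANOG-high side. PIWIL2 was detected in 13 of 19 NANOG-high cells (68.4%, 43.4 to 87.4%) and TDRKH and DDX4 in 12 of 19 each. In the 7 SOX17-high cells PIWIL2 and TDRKH were detected in 0, which allows a share of up to 40.96%, and DDX4 in 1. PIWIL2 ran from 0 to 29.3 FPKM in NANOG-high cells, with a median of 8.05, and from 0 to 0.335 in SOX17-high cells. TDRKH ran from 0 to 30.4 FPKM with a median of 9.79, and from 0 to 0.154. The ranges overlapped only near 0. SOX17-high means were lower by 2.52 for TDRKH, 2.32 for PIWIL2 and 1.98 for DDX4. The SD between NANOG-high cells was 2.06, 1.76 and 2.04, so the difference of DDX4 stayed below it.

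That is 3 of 8 genes lower by at least 1 log2 unit, beside 33.7% of all genes, and none higher, beside 14.2%: the share of these genes is near that of all genes, whose median difference was -0.45 (-0.15 after median-of-ratios scaling). Hatching SOX17-high cells had a median of 9.27 M reads and 5680 detected genes, against 12.8 M and 6940 in NANOG-high cells. The part of depth in the difference was not tested. The 5 NANOG-high cells numbered 1 to 18 had 8.64 M reads, less than the SOX17-high cells of that range. TDRKH was detected in 5 of these 5, DDX4 in 4 and PIWIL2 in 3.

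**Figure D4:**
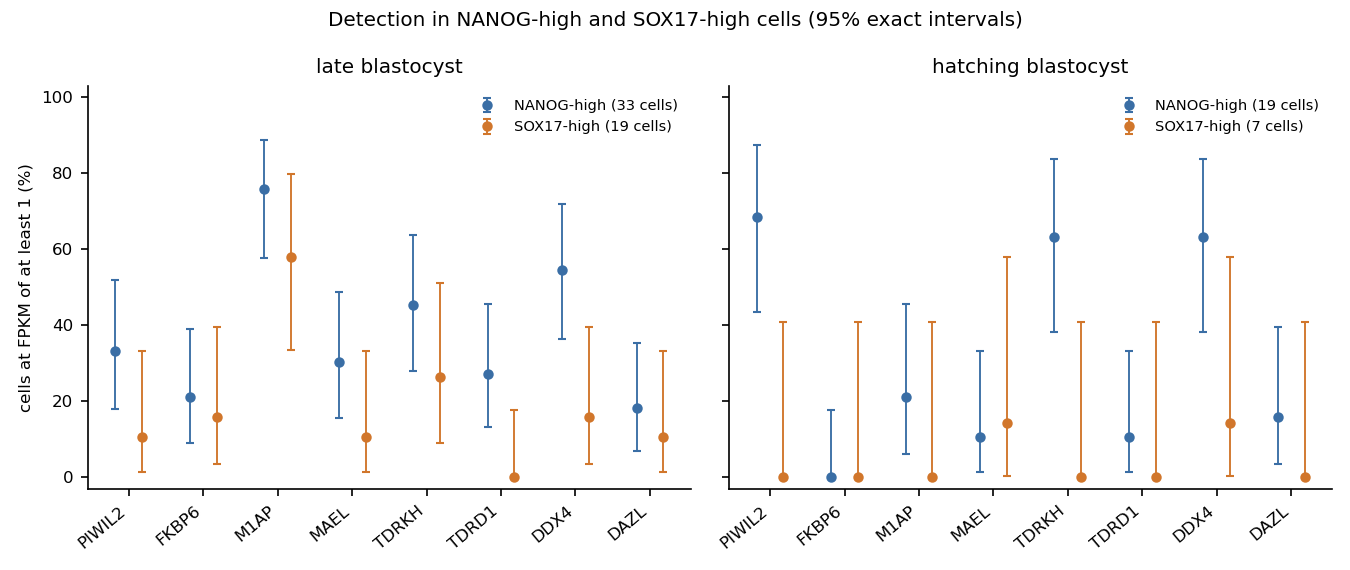
The share of cells at an FPKM of at least 1 (y axis, percent, with 95% exact intervals) for each of the 8 genes (x axis) in late and hatching blastocysts, in NANOG-high (blue) and SOX17-high (orange) cells. DDX4 is 54.5% and 15.8% in late cells, and PIWIL2 is 68.4% and 0 of 7 in hatching cells.

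The rest of the piRNA pathway was present only in part. Of 31 listed piRNA genes 29 had a row and 13 reached a mean FPKM of 1, 6 of them among the 8. GTSF1, a PIWI cofactor, was detected in all 161 cells, and PRMT5 and WDR77, which methylate arginines on many proteins, in 160 each. The other PIWI genes with a row were nearly absent: PIWIL3 was detected in 0 cells and PIWIL4 in 2 late cells. PIWIL1 had no row under that symbol, so its presence is not known here. From early to middle, 3 of the 13 (23.1%) were higher by at least 1 log2 unit, beside 3.06% of all genes, and 0 lower, beside 3.61%. The list median was 0.19, beside 0.08 for all genes. Of these 3, 2 were PIWIL2 and FKBP6, so without the 8 genes 1 of 7 (14.3%) was higher. The other was GPAT2, a mitochondrial acyltransferase that binds PIWIL2 in germ cells, chosen here after its values were seen: it was detected in 0 of 44 early (up to 8.04%), 12 of 39 middle, 5 of 52 late and 1 of 26 hatching cells. Between early and hatching cells, 1 was higher (7.69%, beside 11.3% of all genes) and 2 were lower (15.4%, beside 16.2%), which is near the share of all genes. The list median was -0.24, beside -0.12. HENMT1, which methylates piRNA ends, was at -1.02, with 21 early and 5 hatching cells.

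Among meiosis genes, those past 1 log2 unit between early and hatching cells were all lower in hatching cells. Of 50 listed symbols, some of them older names of the same gene, 35 had a row and 18 reached a mean FPKM of 1. Of these 5 (27.8%) were lower in hatching cells by at least 1 log2 unit, beside 16.2% of all genes, and 0 higher, beside 11.3%, with a list median of -0.64 beside -0.12 for all genes. They were M1AP, SYCP3 (a synaptonemal complex axis protein, -1.84), SYCE1 (of its central element, -1.77), SPATA22 (a recombination factor, -1.71) and HSF2BP (which brings BRCA2 to meiotic breaks, -1.38). SYCP3 was detected in 39 of 44 early, 33 of 39 middle, 42 of 52 late and 13 of 26 hatching cells. SPO11, which makes the breaks that start meiotic recombination, and SYCP1, MSH4, HORMAD2 and PSMC3IP were detected in 0 of 161 cells, which allows a share of up to 2.27%. M1AP's partners C9orf84 and C1orf146 were detected in 2 and 7 cells. Without M1AP, 4 of 17 meiosis genes (23.5%) were lower in hatching than in early cells, beside 16.2% of all genes. The lists were chosen with earlier results known, so their counts are no independent evidence.

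**Figure D5:**
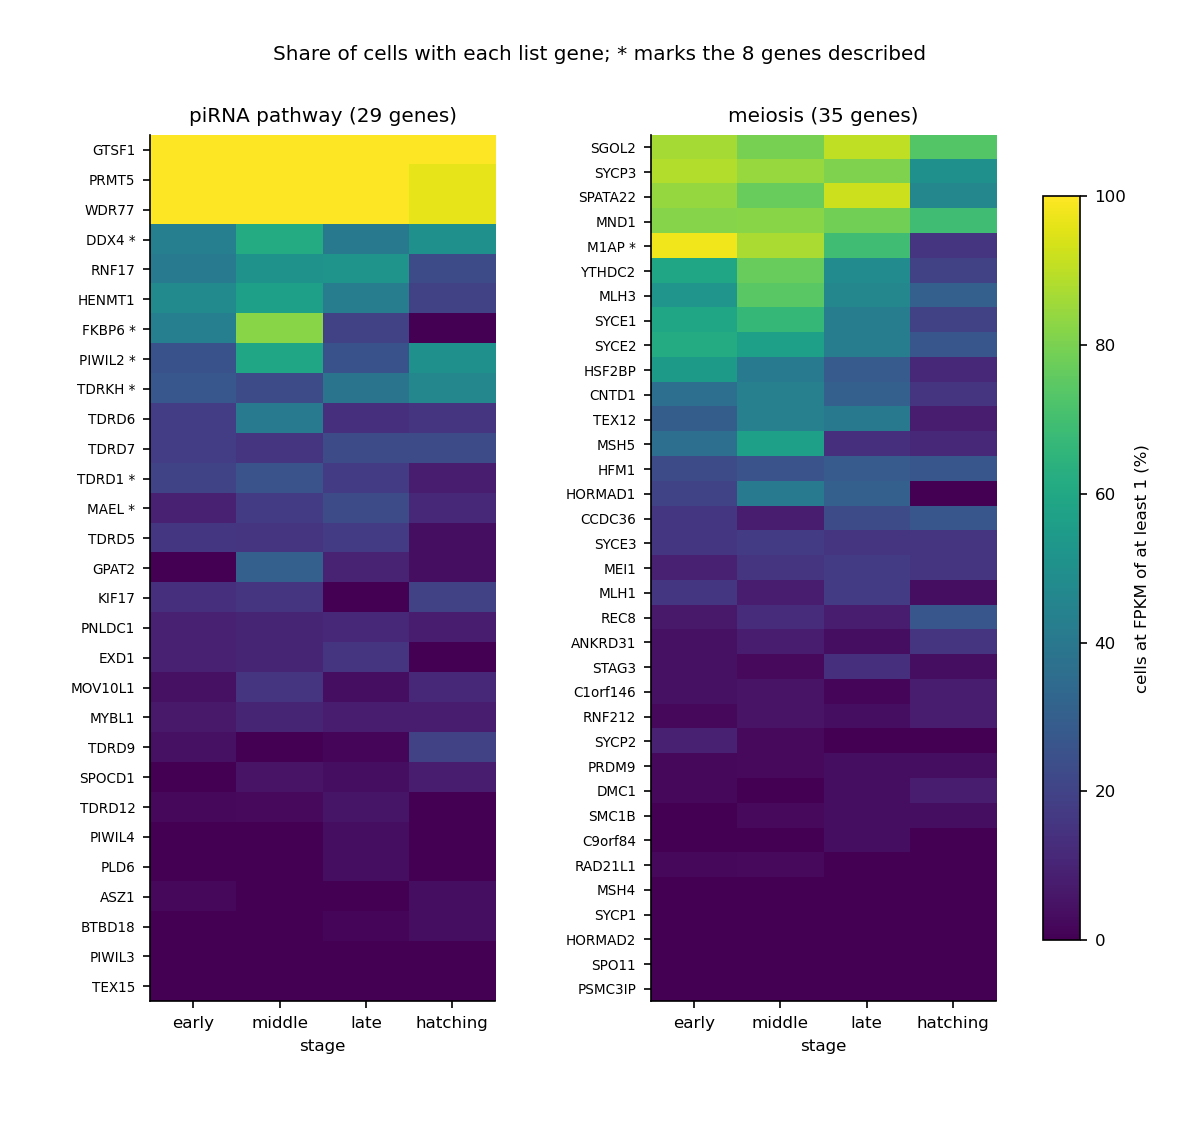
Color gives the percentage of cells at an FPKM of at least 1 at each stage (x axis) for the 29 piRNA pathway genes and 35 meiosis genes with a row (y axis, ordered by the number of cells), with * on the genes described. GTSF1 is in all 161 cells, M1AP and SYCP3 are in most early cells and fewer hatching cells, and SPO11, SYCP1 and MSH4 are in none.

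The genes whose levels were most like those of the 3 leading genes were found over the 161 cells among 8952 genes at an FPKM of at least 1 in at least 20% of cells. For M1AP they were PDCL3 (Pearson r 0.69), SPIC (0.67), MAP1LC3B2 (0.64), AQP3 (0.63) and TOP1MT (0.62). For FKBP6 they were RAB11FIP1 (0.53), TFRC (0.52), BAK1 (0.51), CDK3 (0.50) and MFN2 (0.49). For PIWIL2 they were SLC26A2 (0.40), CLDN11 (0.39), SLC6A9 (0.37), GPR63 (0.37) and ASS1 (0.36). The cells share their stage: after subtracting stage means the r of these genes was 0.18 to 0.28 for M1AP, 0.13 to 0.21 for FKBP6 and 0.26 to 0.34 for PIWIL2. None of the first 5 for M1AP or FKBP6 stayed among the first 5, and 1 did for PIWIL2.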

How the data were processed

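One table of FPKM values for 161 single inner cells was used as the authors deposited it. Per the submitters' processing notes, FastQC, TopHat2 2.1.0, HTSeq and DESeq2 were used, in no stated role. Which genome build and annotation were used is not given in the sources used here, so no coordinates or sequences are printed. Python 3.11.15, numpy 2.4.6, pandas 2.3.3 and scipy 1.17.1 were used. Levels are log2(FPKM + 1). Genes with a mean FPKM of at least 1 (9781) were compared, a difference of at least 1 log2 unit counted as called, and no test was made, since each stage is 1 sample. Amplified cDNA reads are not independent molecules, so intervals cover counting error only. Reads were recovered from the steps of the FPKM values: 13847 of 13857 genes came out whole within 0.001 read, and 48.5 to 51.6% of a cell's larger counts were odd, as a right scale gives. The read recovery was tested on simulated data. The members and lists were chosen with earlier results of these data known. The genes named are the 8, NANOG, SOX17, the 5 genes most like PIWIL2, FKBP6 and M1AP, and list genes at least 1 log2 unit apart between early and hatching cells; any other gene was picked with its values in view.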

Additional observations from a re-analysis of the deposited data

How the results depend on the processing

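No paired analysis was possible because no result comes from a test and numbers shared by titles of different stages name no shared embryo. Over the alternatives (pseudocount, scaling, summaries over cells, number ranges), 378 of 384 stage differences of the 8 genes moved by less than the spread between cells, 5 moved by more and 1, a difference over 1 log2 unit, reversed. That was PIWIL2 middle minus early, at -0.19 between the higher number ranges, a division chosen after seeing the data. In all, 25 of the 384 changed sign, 22 of them under a division by title number and 24 from values under 1 log2 unit. M1AP hatching minus early was -7.51 with a pseudocount of 0.1 and -2.50 with a pseudocount of 10. FKBP6 hatching minus late was -2.93 as the log2 of the mean FPKM, by which the FKBP6 level of late cells was 2.96. By medians over cells DDX4 was 2.77 for middle minus early and -2.81 for late minus middle. All 232 differences between NANOG-high and SOX17-high cells stayed within the spread between cells, and 19 changed sign, each from a value under 1. With 2 log2 units as the limit, the piRNA list had 1 gene higher from early to middle, 1 lower from middle to late, and 0 higher and 0 lower from early to hatching. The meiosis list then had 0 higher and 0 lower from middle to late, 2 lower from late to hatching and 1 lower from early to hatching. Shares of cells moved most: 45 of 128 left their interval, chiefly with at least 1 read in place of 1 FPKM, under which M1AP was present in 100% of late and 61.5% of hatching cells.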

Other observations

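Of 15 listed germ cell genes, 13 had a row, 4 of them among the 8, and the others were a mix of widely present and absent ones. DND1, an RNA-binding protein of germ cells, was detected in 158 of 161 cells, SOHLH2, a transcription factor of early germ cells, in 149, and TFAP2C, which primordial germ cells share with trophectoderm, in 111. NANOS2, NANOS3 and BOLL were detected in 0 cells. SOHLH2 had a mean of 5.23 in early and 3.79 in hatching cells, and PRDM1, which acts in germ cells and in endoderm, had 0.12 and 1.35. These hatching means mix unlike sides: SOX17-high minus NANOG-high was -3.74 for SOHLH2 and 4.51 for PRDM1. All early cells were NANOG-high.

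Genes of the oocyte were mostly absent. Of 22 listed, 19 had a row, and BMP15, ZP4, ZAR1 and BTG4 were detected in 0 cells. GDF9 was detected in 5 early, 3 middle, 0 late and 1 hatching cells. KHDC3L and OOEP, of the oocyte's subcortical maternal complex, were detected in all 161 cells. TLE6, PADI6 and NLRP5, also listed, were detected in 109, 2 and 1 cells. Presence of the complex as a whole is not shown. UHRF1, a cofactor of DNA methylation that dividing cells also use, had a mean of 0.87 in early and 2.72 in hatching cells. Of 8 genes of cumulus and granulosa cells, FOXL2, AMH, GREM1 and FSHR were at 0 in all cells, and HAS2 was detected in 2 early, 0 middle, 9 late and 14 hatching cells. The part of maternal transcripts in the levels of the 8 genes was not tested.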
